A study of Mus musculus with 12 samples.

Results

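Interferon-stimulated genes were followed in whole hearts of mice with and without an amino acid change in LEMD2, which sits in the inner nuclear membrane. The genes came from a list of 34 symbols that covers transcription factors, nucleic acid sensors and effectors of the type I interferon response, and each was found by its symbol in the gene table. Of these, 32 were among the 39331 gene entries of the table and all 32 passed the filter on low counts, which left 15606 genes in all. Mx1 and Mx2 were not analysed here.

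The mice were C57BL/6N, untreated and 9 months old. The WT group held 6 wild-type hearts and the KI group 6 hearts of Lemd2 p.L13R knock-in mice, with 1 library of polyadenylated RNA per heart (n = 6 per group throughout). In the knock-in, residue 13 of LEMD2 is changed from leucine to arginine. The labels do not say whether 1 or both alleles carry it. The titles of KI 1 and KI 2 each join a pair of numbers, those of KI 3 to 5 hold an age tag that the other KI titles lack, and KI 2 and KI 6 are tagged old and new. None of these tags is explained in the sources used here. Over all genes KI 3 to 5 stood apart from the other KI libraries. Their log2 CPM correlated at 0.991 to 0.994 with each other (Pearson's r across genes, which are not independent replicates). With KI 1, KI 2 and KI 6 they correlated at 0.98 to 0.986. KI 1, KI 2 and KI 6 correlated at 0.982 to 0.99 with each other, and WT 2 with WT 5 at 0.993. The total counts of KI 3 to 5, at 27.9, 34.9 and 31.8 M (units of 1000000), were the lowest of the 12 libraries. The total count was 38.3 to 44.6 M in WT and 27.9 to 42.9 M in KI, and genes of the mitochondrial chromosome took 34% to 40.4% and 30.9% to 33.9% of it. Lemd2 itself was lower in KI (log2 fold change -0.36, SE 0.09, adjusted p = 0.0215), but a count per gene cannot show a single changed residue and is no check of the genotype. The markers of heart muscle were present, and the summed level of the 8 cardiomyocyte markers was 45900 to 52500 CPM in WT and 41800 to 50700 CPM in KI.

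Type I interferons are secreted proteins that cells make after sensing viral or misplaced nucleic acid. They bind the receptor made of IFNAR1 and IFNAR2, the kinases JAK1 and TYK2 are activated, and phosphorylated STAT2 joins IRF9 in the transcription factor complex ISGF3. ISGF3 binds the interferon-stimulated response element (ISRE) in the promoters of its target genes. Many targets encode antiviral effectors, while others are themselves sensors or transcription factors of the pathway. IRF7 amplifies interferon production and USP18 limits signalling at the receptor. Interferon-gamma acts through a different element, the gamma-activated sequence (GAS).

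Promoters of some of these genes hold the core of the sequence that the pathway reads. RefSeq promoter windows of GRCm38.p6, from 250 bases before to 50 bases after the start that this table gives, were found for 24 of the 32 genes. The core of the ISRE was searched on both strands as GAAA, any 2 bases and GAAA again, which reads TTTC, any 2 bases and TTTC from the other strand. It was present in 13 of the 24 genes (54.2%), against 3.99% of the 27025 genes with such a window and 3.82% of the 12119 of them that were tested. Several matches may overlap within a gene. The 10 windows below were chosen because they hold a match before that start. They are written on the strand of the gene and show where the element stands in these genes. Capitals mark the matching bases.
Bst2 (GRCm38.p6 chr8:71537575-71537614, minus strand): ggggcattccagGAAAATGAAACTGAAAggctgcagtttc
Oas1a (GRCm38.p6 chr5:120907526-120907557, minus strand): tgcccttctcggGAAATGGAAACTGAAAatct
Isg15 (GRCm38.p6 chr4:156200863-156200908, minus strand): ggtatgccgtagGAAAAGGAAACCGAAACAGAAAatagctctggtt
Ifit1 (GRCm38.p6 chr19:34640773-34640825, plus strand): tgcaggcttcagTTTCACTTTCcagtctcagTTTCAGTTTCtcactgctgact
Ifit3 (GRCm38.p6 chr19:34583361-34583428, plus strand): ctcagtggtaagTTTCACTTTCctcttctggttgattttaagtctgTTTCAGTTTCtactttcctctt
Oas3 (GRCm38.p6 chr5:120777713-120777746, minus strand): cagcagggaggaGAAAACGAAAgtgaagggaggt
Stat2 (GRCm38.p6 chr10:128270264-128270297, plus strand): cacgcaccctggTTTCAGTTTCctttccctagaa
Rsad2 (GRCm38.p6 chr12:26456551-26456584, minus strand): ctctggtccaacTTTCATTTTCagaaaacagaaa
Gbp2 (GRCm38.p6 chr3:142620592-142620625, plus strand): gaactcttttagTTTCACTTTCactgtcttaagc
Gbp3 (GRCm38.p6 chr3:142559987-142560026, plus strand): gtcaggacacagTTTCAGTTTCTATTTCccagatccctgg

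The start in the promoter table is not always the edge of the span over which reads were counted. It lies 410 bases inside that span in Ifit3, 144 in Ifit2, 28 in Gbp3, 25 in Oas3 and 19 in Oas1a. All 20 bases matching the ISRE core in Ifit3 and 15 of 16 in Oas1a therefore fall within the counted span. In Oas1a the tandem copies end 5 bases before the start of the promoter table, and in Bst2 they lie 130 to 115 bases before it. Isg15 holds 3 overlapping copies, and Ifit1 and Ifit3 each hold a separated pair. Ddx58, Eif2ak2 and Ifih1 also match, at or after the start. The GAS was searched as TTCNNNGAA, which reads the same on both strands, and was present in 6 of the 24 genes (25.0%) against 9.55% of all genes with a window. It lies before the start, and outside the counted span, in Bst2, Eif2ak2, Ifit2 and Oas1a. A match describes these letters in this window only. The ISRE core was found in 4 of the 7 genes with a window that were called higher in KI (57.1%) and in 9 of the 17 that were not (52.9%), and the GAS in 4 and 2 of them.

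Hearts of KI mice had more RNA from 10 of the 32 interferon-stimulated genes than WT hearts, and from none of them less. The genes that rose were Irf7, Ifi27l2a, Ddx58, Oas1a, Usp18, Dhx58, Oasl2, Ifit2, Bst2 and Eif2ak2, by 1.24-fold (Eif2ak2) to 2.17-fold (Ifi27l2a). They are 31.2% of the genes, where 4.46% of all 15606 genes tested were called higher and 4.34% lower (8.80% in either direction). Of the 32 log2 fold changes 30 were positive, against 52.8% over all genes, and their median was 0.43 against 0.01. Calls here are adjusted p values under 0.05 from the edgeR quasi-likelihood test over all genes tested, and levels are counts per 1000000 (CPM) after scaling. At an unadjusted p under 0.05, 26 were higher and 0 lower, where 12.8% and 12.9% of all genes were. DESeq2 called 17 higher and 0 lower, with 6.28% of all genes higher. Voom, used throughout with a quality weight for each library, called 20 and 0, with 6.50% of all genes higher.

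**Figure D1:**
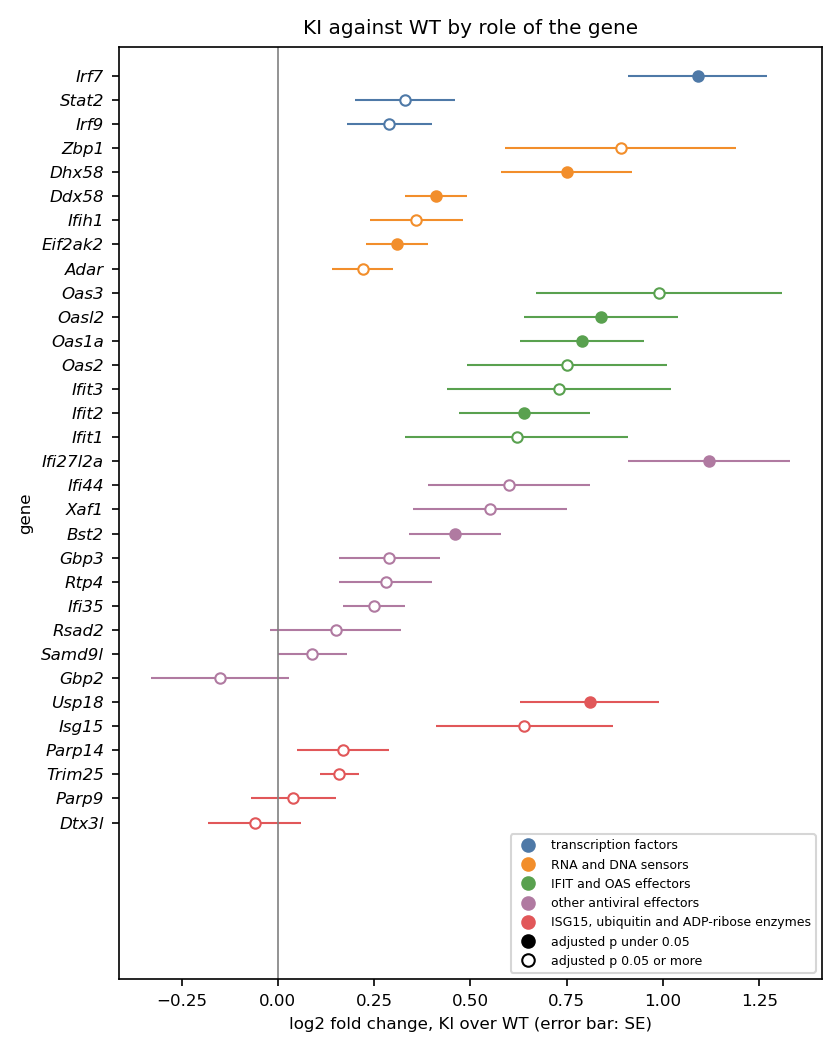
Log2 fold change of KI over WT (horizontal axis) with its standard error for each of the 32 genes, coloured by role, with filled points for adjusted p under 0.05. The points run from -0.15 for Gbp2 to 1.12 for Ifi27l2a, and 30 of 32 lie right of 0.

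In 6 of the genes every KI library lay above every WT library, namely Irf7, Ddx58, Dhx58, Oas1a, Oasl2 and Usp18, where 2.14% of all genes tested showed this. The opposite order, every KI library below every WT library, was shown by none of them and by 2.21% of all genes. With each library left out in turn, 7 of the 10 calls were kept in all 12 fits, those of the same 6 genes and of Ifi27l2a. Ifit2, Bst2 and Eif2ak2 passed in 2, 4 and 3 of these fits, and their adjusted p rose to 0.0746, 0.0818 and 0.0807 without WT 2. The number of genes called ranged from 7 to 16, and was 16 without WT 5, where 3.17% of all genes were called higher. With library totals alone as the scaling, the median log2 fold change over all genes was 0.15 larger and 94% of all calls were higher ones instead of 50.7%, so each direction here is relative to the scaling used, the trimmed mean of M values (TMM).

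Among the transcription factors, Irf7 rose, and Stat2 and Irf9, which encode subunits of ISGF3, did not pass the test. Irf7 (Gene ID 54123 in the table; coordinates here and later are of GRCm38.p6; chromosome 7, 141263183 to 141266499, minus strand) encodes the factor that amplifies type I interferon transcription. It measured 7.04 CPM in the lowest, 10.6 in the median and 17.2 in the highest WT library, and 21.6, 25.4 and 28.1 CPM in KI. The groups did not overlap, and WT 1 and WT 5 were the highest of WT. Its log2 fold change of 1.09 (SE 0.18, adjusted p = 0.00498) had the smallest p of the 32 genes.

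Stat2, the gene of an ISGF3 subunit, ran from 13 to 20.6 CPM in WT (median 16.3) and from 16.6 to 25.4 CPM in KI (median 20.3), and the groups overlapped. The log2 fold change of 0.33 (SE 0.13, adjusted p = 0.113) did not pass. Apof, which overlaps Stat2 on the same strand, had 1.12% of its count. Irf9, the DNA-binding partner in ISGF3, ran from 9.91 to 15.6 CPM in WT (median 12.1) and from 13.1 to 16.9 CPM in KI (median 14.8), with a log2 fold change of 0.29 (SE 0.11, adjusted p = 0.111). Only 1 KI library was above the highest WT library of Irf9.

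**Figure D2:**
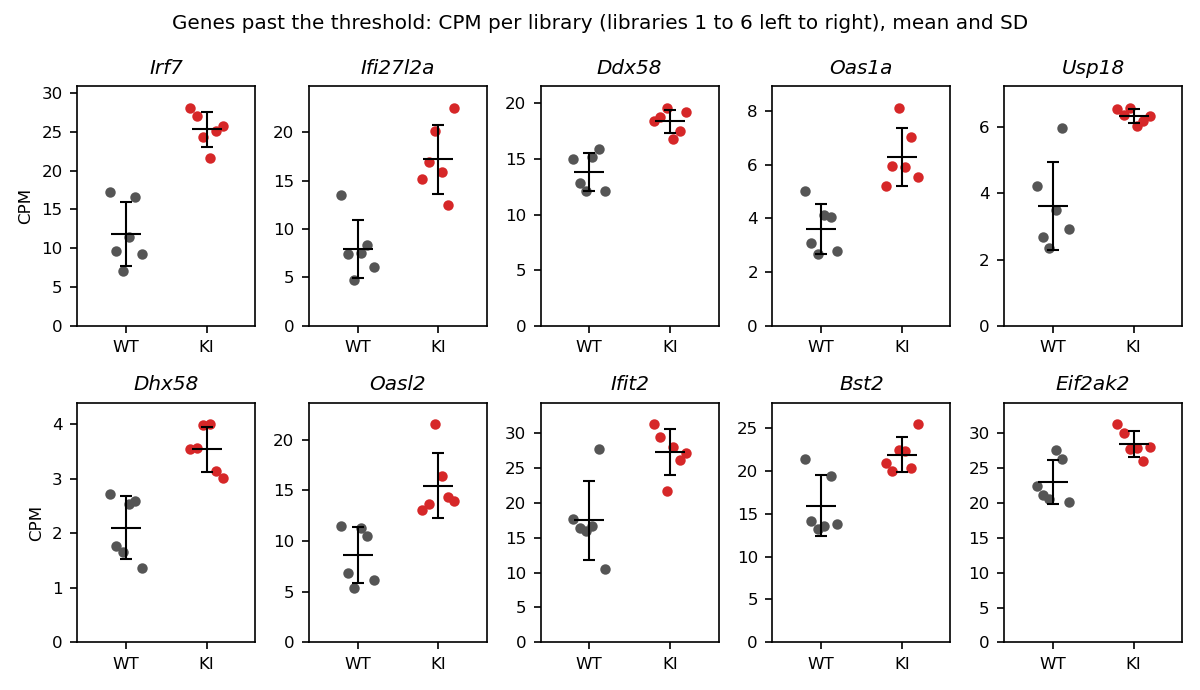
CPM (vertical axis, from 0) of the 10 genes past the threshold in each of the 6 WT and 6 KI libraries, with the group mean and SD. Irf7 lies between 21.6 and 28.1 CPM in KI and at most at 17.2 CPM in WT, while in Ifit2, Bst2, Eif2ak2 and Ifi27l2a the groups overlap.

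Of the 6 sensors of RNA and DNA, 3 rose, Ddx58, Dhx58 and Eif2ak2, and the median log2 fold change of the class was 0.39. Ddx58 (Gene ID 230073; chromosome 4, 40203777 to 40239825, minus strand) encodes RIG-I, which detects RNA with a triphosphate end. Its level was 12.1, 13.9 and 15.9 CPM in the lowest, median and highest WT library and 16.8, 18.6 and 19.6 CPM in KI. These ranges were close but did not overlap, and the log2 fold change was 0.41 (SE 0.08, adjusted p = 0.00894). Dhx58 (Gene ID 80861; chromosome 11, 100694884 to 100704271, minus strand) encodes LGP2, a helicase that regulates RIG-I and MDA5. It had fewer counts, with 1.37, 2.16 and 2.72 CPM in WT and 3.02, 3.56 and 4 CPM in KI, with a log2 fold change of 0.75 (SE 0.17, adjusted p = 0.0188). No WT library of Dhx58 reached the lowest KI library.

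Eif2ak2 (Gene ID 19106; chromosome 17, 78850504 to 78882572, minus strand) encodes PKR, the kinase that halts translation upon binding double-stranded RNA. Its level was 20.1, 21.8 and 27.6 CPM in WT and 26, 28 and 31.3 CPM in KI, so that the groups overlapped through WT 4 and WT 5. The log2 fold change was 0.31 (SE 0.08, adjusted p = 0.0358). Adar, which edits double-stranded RNA, ran from 19 to 25.3 CPM in WT (median 22.7) and from 24.4 to 29.4 CPM in KI (median 25.9; log2 fold change 0.22, SE 0.08, adjusted p = 0.0872). Zbp1, a sensor of left-handed nucleic acid, had the largest fold of the class without passing. It ran from 0.595 to 2.57 CPM in WT (median 1.08) and from 1.98 to 3.04 CPM in KI (median 2.47), with a log2 fold change of 0.89 (SE 0.30, adjusted p = 0.0766). The highest WT library of Zbp1 was WT 5, above the KI median. Ifih1, which encodes the RNA sensor MDA5, had a log2 fold change of 0.36 (adjusted p = 0.0701).

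The IFIT and OAS effectors had the highest median fold of the classes. IFIT proteins bind viral RNA, and OAS enzymes make the oligoadenylate that activates RNase L. All 7 measured genes had a log2 fold change of at least 0.62, with a median of 0.75, and 3 rose, Oas1a, Oasl2 and Ifit2. Oas1a (Gene ID 246730; chromosome 5, 120896256 to 120907544, minus strand) was at 2.68, 3.56 and 5.03 CPM in the lowest, median and highest WT library and at 5.22, 5.93 and 8.11 CPM in KI. The highest WT library, WT 1, lay just below the lowest KI library, KI 1. The log2 fold change of Oas1a was 0.79 (SE 0.16, adjusted p = 0.0128). Oasl2 (Gene ID 23962; chromosome 5, 114896926 to 114912245, plus strand), an OAS-like gene, was at 5.39, 8.69 and 11.5 CPM in WT and at 13.1, 14.1 and 21.5 CPM in KI. Its groups did not overlap either, KI 3 stood highest, and the log2 fold change was 0.84 (SE 0.20, adjusted p = 0.0213).

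Ifit2 (Gene ID 15958; chromosome 19, 34550550 to 34576534, plus strand) was at 10.5, 16.5 and 27.7 CPM in WT and at 21.6, 27.5 and 31.2 CPM in KI. WT 5 alone reached into the KI range, and the log2 fold change was 0.64 (SE 0.17, adjusted p = 0.0342). Its neighbours on chromosome 19, Ifit3 and Ifit1, had folds of the same order but did not pass, at 0.73 (SE 0.29, adjusted p = 0.13) and 0.62 (SE 0.29, adjusted p = 0.193). In both, WT 5 was the highest of all 12 libraries, at 22.9 CPM for Ifit3 and 13.8 CPM for Ifit1, while the other WT libraries ran from 4.73 to 12.3 and from 3.8 to 8.81 CPM. Without WT 5 the log2 fold change of Ifit1 was 0.96 (adjusted p = 0.0214), and both genes were called.

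Oas2 and Oas3 had large folds but missed the threshold. Oas2 measured 9.07 to 20.9 CPM in WT (median 11.6) and 12.6 to 32.6 CPM in KI (median 21), with a log2 fold change of 0.75 (SE 0.26, adjusted p = 0.0848). Its KI libraries split, with 31.1, 22.5 and 32.6 CPM in KI 3, KI 4 and KI 5 against 15.4, 19.5 and 12.6 CPM in KI 1, KI 2 and KI 6. Oas3 had the fewest counts of the 32 genes and was at 0.152 to 0.876 CPM in WT (median 0.454) and 0.654 to 1.35 CPM in KI (median 0.93). Its log2 fold change of 0.99 had an SE of 0.32 (adjusted p = 0.0712), and its lowest library held 6 counts. Reads that match several OAS1, IFIT, GBP or Ifi27l2 genes were split between them in the deposited counts, so values of single members of these families are uncertain.

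Other antiviral effectors were mixed, with 2 of 10 higher and a median log2 fold change of 0.29. Ifi27l2a (Gene ID 76933; chromosome 12, 103433873 to 103443680, minus strand), a small membrane protein gene strongly induced by interferon, was at 4.73, 7.45 and 13.5 CPM in WT and at 12.5, 16.4 and 22.5 CPM in KI. Only WT 1 lay above the lowest KI library, KI 5. The log2 fold change of 1.12 (SE 0.21, adjusted p = 0.00817) was the largest of the 32. Bst2 (Gene ID 69550; chromosome 8, 71534255 to 71537472, minus strand) encodes tetherin, which holds budding virus particles at the cell surface. It was at 13.2, 13.9 and 21.4 CPM in WT and at 20, 21.6 and 25.4 CPM in KI, overlapping through WT 1, with a log2 fold change of 0.46 (SE 0.12, adjusted p = 0.0345).

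Rsad2 and Samd9l, which held the most counts of this class, did not pass the test. Rsad2 encodes viperin, an enzyme that makes a chain-terminating nucleotide, and ran from 12.5 to 27.9 CPM in WT (median 21.7) and from 17.1 to 27.2 CPM in KI (median 23.2). The KI range lay inside the WT range, and the log2 fold change was 0.15 (SE 0.17, adjusted p = 0.633). Samd9l, a restriction factor that blocks translation, ran from 16.2 to 21.8 CPM in WT (median 19.3) and from 15.8 to 23.3 CPM in KI (median 21.8; log2 fold change 0.09, SE 0.09, adjusted p = 0.596). The remaining 6 genes did not pass, and ran from -0.15 for Gbp2 (adjusted p = 0.649) over 0.25 for Ifi35, 0.28 for Rtp4, 0.29 for Gbp3 and 0.55 for Xaf1 to 0.60 for Ifi44 (adjusted p = 0.0842). Xaf1 split within KI like Oas2, at 19.8, 18.5 and 18.1 CPM in KI 3 to 5 against 10.1, 12.7 and 9.98 CPM in KI 1, KI 2 and KI 6.

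Among the genes of ISG15, ubiquitin and ADP-ribose transfer, 1 of 6 rose, and the median log2 fold change was 0.17. Usp18 (Gene ID 24110; chromosome 6, 121245906 to 121270917, plus strand) encodes the protease that removes ISG15 from proteins and dampens receptor signalling. Its KI libraries were nearly equal, at 6.03, 6.33 and 6.57 CPM for the lowest, median and highest, while WT was at 2.36, 3.21 and 5.97 CPM. WT 5 came just below the lowest KI library, and the log2 fold change was 0.81 (SE 0.18, adjusted p = 0.0186). Isg15, the ubiquitin-like modifier itself, had a log2 fold change of 0.64 (SE 0.23, adjusted p = 0.0993), with 4.58 to 5.53 CPM in KI and 2.03 to 6.06 CPM in WT. Here too WT 5 was the highest of all libraries.

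Parp14, an ADP-ribosyltransferase and the gene with the most counts of its class, ran from 27.4 to 49.3 CPM in WT (median 34.7) and from 36.3 to 44.3 CPM in KI (median 40.8; log2 fold change 0.17, SE 0.12, adjusted p = 0.378). Trim25, a ubiquitin ligase acting on RIG-I, ran from 30.3 to 34.6 CPM in WT (median 33.1) and from 33.4 to 39.5 CPM in KI (median 37.2). Although 5 of 6 KI libraries of Trim25 lay above all of WT, the log2 fold change of 0.16 (SE 0.05, adjusted p = 0.0648) missed the threshold. Parp9 and its partner Dtx3l, a ubiquitin ligase, had log2 fold changes of 0.04 (SE 0.11) and -0.06 (SE 0.12), with adjusted p values of 0.853 and 0.794. These genes are neighbours on chromosome 16.

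**Figure D3:**
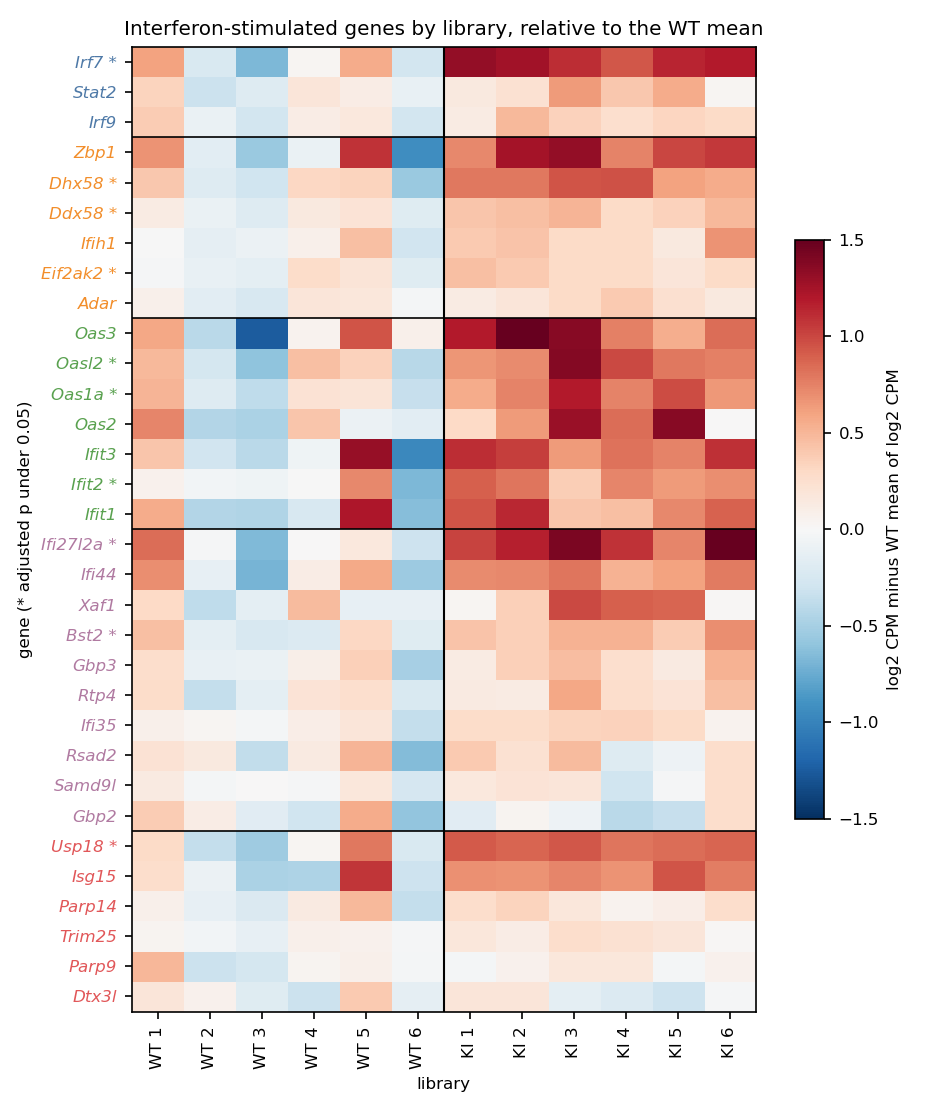
Log2 CPM of each of the 32 genes (rows, grouped by role) in each library (columns), minus the WT mean of that gene. WT 1 and WT 5 are red in most rows and WT 3 and WT 6 blue, while the KI columns are red in 27 to 32 rows.

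In these genes, WT hearts were spread more widely than KI hearts. The SD of log2 CPM was larger in WT than in KI for 28 of the 32 genes, where 53.3% of all genes tested showed this, and its median was 0.34 in WT and 0.18 in KI, against 0.17 in both groups over all genes. The 4 exceptions were Oas2, Xaf1, Samd9l and Trim25. Zbp1, Oas3, Ifit3 and Ifit1 had the widest WT spread, with SDs of 0.76, 0.77, 0.78 and 0.73, and Usp18 the narrowest in KI, at 0.05.

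**Figure D4:**
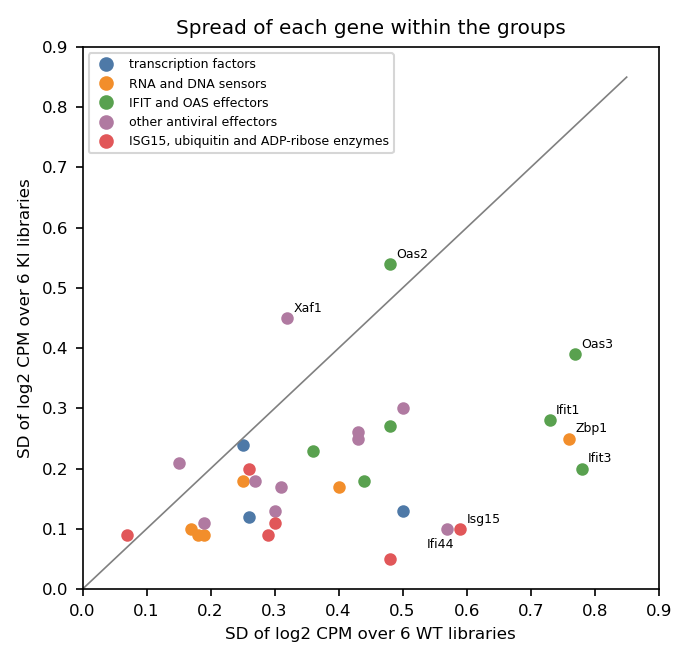
SD of log2 CPM over the 6 KI libraries (vertical axis) against that over the 6 WT libraries (horizontal axis) for the 32 genes, coloured by role, with the line of equal spread. Most points lie below the line, 28 of 32, and Xaf1 lies furthest above it.

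The WT spread was shared between genes. WT 1 and WT 5 were above the WT mean in 30 of 32 genes each, with median deviations of 0.32 and 0.34 on the log2 scale. WT 3 and WT 6 were above it in 1 of 32 each (medians -0.25 and -0.29), WT 2 in 4 and WT 4 in 23. Medians of the KI libraries lay between 0.41 and 0.52, above every WT library. WT 5 was the highest of all 12 libraries in 7 genes, and WT 3 and WT 6 were each the lowest in 13.

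**Figure D5:**
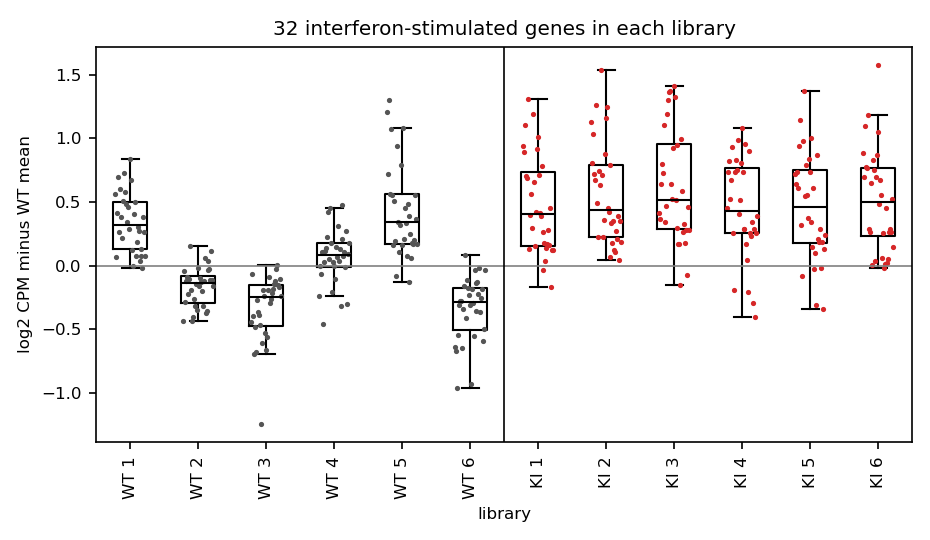
Log2 CPM minus the WT mean (vertical axis) of the 32 genes in each library, with points for genes, boxes for the quartiles, lines for the medians and whiskers to 1.5 times the box height. Box medians are -0.29 to 0.34 in WT and 0.41 to 0.52 in KI.

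The split of KI 3 to 5 from the other KI libraries, seen over all genes, was visible in some of the interferon-stimulated genes. Stat2 was higher in KI 3 to 5, as were Oas2 and Xaf1. Its levels there were 25.4, 21.6 and 23.9 CPM, against 18.1, 19 and 16.6 CPM in KI 1, KI 2 and KI 6. Other genes split the opposite way, among them Ifit1, Ifit3, Parp14, Dtx3l, Irf7 and Eif2ak2. Ifit3 was at 14.4, 16.4 and 15.5 CPM in KI 3 to 5 against 20, 19 and 19.8 CPM. When KI 3 to 5 were left out, all 32 log2 fold changes were positive, that of Gbp2 at 0.00 after rounding (median 0.40), but edgeR called 0 of the genes, while 17 had an unadjusted p under 0.05. In that fit 92 genes were called in all, and 0.433% of genes were called higher. With KI 3 to 5 as the only KI libraries, 10 genes were called (median 0.39), 6 of them among the 10 above, where 4.96% of all genes were called higher. Oas2, Stat2, Xaf1 and Trim25 were then called, and Usp18, Ifit2, Bst2 and Eif2ak2 were not.

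Interferon genes themselves were barely detected. All 21 interferon ligand genes of the list, the type I, II and III interferons, failed the filter, and 18 of them, Ifnb1 among them, had a count of 0 in every library. A count of 0 allows up to 3 counts, or 0.0673 to 0.108 CPM depending on the library, and this limit covers counting error only. Unlike the other CPM, it is per library total before TMM scaling. Ifng, Ifnk and Ifnz reached at most 6, 3 and 1 counts. At this depth a difference in ligand RNA was not detectable.

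None of the receptors, kinases and STATs of the pathway passed the test. Of 11 genes, 0 were called in edgeR (1 higher and 0 lower at an unadjusted p under 0.05, and 1 higher in DESeq2 and in voom), and the median log2 fold change was -0.01. Ifngr2, a chain of the interferon-gamma receptor, and Jak1, the kinase of both receptors, held the most counts, at 130 to 185 CPM and 107 to 149 CPM over all libraries. Their log2 fold changes were -0.09 (SE 0.08) and -0.12 (SE 0.06), with adjusted p values of 0.51 and 0.254. Named after their values were seen, Ifnar1 and Ifnar2 each had a log2 fold change of 0.04 (SE 0.07 and 0.06).

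A list of 10 further genes held interferon regulatory factors and the IRF2-binding proteins Irf2bp1, Irf2bp2 and Irf2bpl. Of these, 1 rose, Irf5, a factor of myeloid cells that acts below Toll-like receptors. It went from 3.1 to 3.98 CPM in WT (median 3.63) to 4.35 to 6.8 CPM in KI (median 4.85) without overlap (log2 fold change 0.52, SE 0.12, adjusted p = 0.0173). The genes Irf2bp2 and Irf2bpl, which held the most counts of the list, had folds of -0.00 and 0.01 on the log2 scale. Upstream of interferon, 1 of 16 adaptor and sensor genes rose, Cgas, whose product makes cyclic GMP-AMP upon binding DNA. It was at 0.795 to 1.28 CPM in WT (median 1.06) and at 1.35 to 1.94 CPM in KI (median 1.61; log2 fold change 0.58, SE 0.15, adjusted p = 0.0327), and the groups did not overlap. Mavs, the adaptor of RIG-I, and Traf3 did not pass (-0.19 and 0.08). Among 18 negative regulators 1 rose, Nlrc3, which restrains STING signalling, from a median of 5.15 to 17.9 CPM (log2 fold change 1.82, SE 0.21, adjusted p = 0.000942). These single calls are 10%, 6.25% and 5.56% of their lists, where 4.46% of all genes were called higher. Ptpn11, a phosphatase, and Samhd1, a nucleotide hydrolase, had log2 fold changes of -0.15 and 0.02.

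A wider list of interferon-stimulated genes moved in the same direction. Of 48 further genes tested, 9 rose and 0 fell (18.8% against 4.46% of all genes), and the median log2 fold change was 0.26. The smallest adjusted p values were those of Lgals3bp (0.69, SE 0.11, adjusted p = 0.00487), Oas1g (1.07, SE 0.22, adjusted p = 0.0118), Apol9b (1.5, SE 0.34, adjusted p = 0.0177) and Ifitm3 (0.43, SE 0.10, adjusted p = 0.018). Lgals3bp encodes a secreted glycoprotein and Ifitm3 a membrane protein that hinders virus entry. Lgals3bp was at 21.4 to 34.3 CPM in WT and 38 to 53.7 CPM in KI, without overlap. Oasl1, Phf11d, Slfn8, Trim30a and Apol9a completed the 9. Apol9a and Apol9b had few counts, at 0.0946 to 0.539 and 0.114 to 0.641 CPM in WT. In KI they were at 0.588 to 1.28 and 0.636 to 1.44 CPM. Reads that match both would be split between them, so these may not be independent calls.

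GTPases induced by interferon-gamma and antigen presentation genes formed a further list. Of its 28 genes 1 rose and 0 fell, the immunoproteasome subunit gene Psmb10 (0.33, SE 0.08, adjusted p = 0.0265), which is 3.57% of the list against 4.46% of all genes, and the median log2 fold change was 0.06. B2m and H2-D1, the light and a heavy chain of MHC class I, held the most counts and had log2 fold changes of 0.21 and 0.19 (adjusted p = 0.406 and 0.363). The summed level of the list was 1470 CPM in WT 1 and 1480 CPM in WT 5, above the KI range of 996 to 1360 CPM, and at most 1040 CPM in the other WT libraries.

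In bulk tissue, fewer cells of a type and less RNA per cell cannot be told apart. Macrophage markers summed to 174 to 284 CPM in WT and 206 to 290 CPM in KI. Of these 10 markers 0 were called by edgeR and by voom and 1 by DESeq2, and 5 had an unadjusted p under 0.05. The log2 fold change was positive in 9 of them, with a median of 0.31. Csf1r and C1qb, with the most counts, had log2 fold changes of 0.31 and 0.35 (adjusted p = 0.0615 and 0.141). WT 1 and WT 5, where the interferon-stimulated genes were high, had the highest macrophage sums of WT, at 284 and 220 CPM. KI 5 was below both at 206 CPM, and the other KI libraries ran from 228 to 290 CPM. The median deviation of the interferon-stimulated genes was 0.46 in KI 5, 0.32 in WT 1 and 0.34 in WT 5. It was -0.14 in WT 2, whose macrophage sum was 204 CPM. These are single libraries, and the part of macrophages in the change of the interferon-stimulated genes was not tested. Of the 4 monocyte markers tested 1 rose (25%, against 4.46% of all genes), and the median log2 fold change was 0.50. It was Ace, which endothelial cells also express (0.67, SE 0.10, adjusted p = 0.00326), and Ly6c2 had 0.04. The fibroblast markers Col1a1 and Col3a1 rose as 2 of 6 (0.86 and 0.68), which is 33.3% against 4.46% of all genes. All 6 log2 fold changes were positive, with a median of 0.44. At an unadjusted p under 0.05, 5 were higher, and DESeq2 called 4 and voom 1. The list sums were 663 to 836 CPM in WT and 784 to 1410 CPM in KI.

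Of 8 cardiomyocyte markers 2 fell, Pln and Tnni3 (-0.30 and -0.26), where 4.34% of all genes were called lower. No endothelial marker of 8 was called, with sums of 966 to 1180 CPM in WT and 981 to 1300 CPM in KI, and no pericyte or smooth muscle marker of 6. Markers of T and NK cells (1.03 to 2.32 CPM in WT, 1.21 to 1.98 in KI, over the 3 of 9 tested), of B cells (3.24 to 6.84 and 3.1 to 6.94 CPM) and of neutrophils (1.68 to 3.07 and 1.37 to 4.84 CPM) were low in both groups. Siglech, a defining marker of plasmacytoid dendritic cells, was at 0.276 CPM on average. No marker of these lists was at 0 in every library. Their part in the change of the interferon-stimulated genes was not tested.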

How the data were processed

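RNA of 12 mouse hearts, 6 WT and 6 KI, was sequenced from libraries made with a stranded mRNA kit, per the labels' protocols. Per the submitters' processing notes, the tools included cutadapt 2.5, STAR 2.7.2b and featureCounts 1.6.4. The authors deposited expected counts per gene, not normalized. Per the file headers, reverse-strand reads were assigned to full gene spans with their introns, on a RefSeq annotation of GRCm38.p6, and reads with several alignments or several overlapping genes were split as fractions, so 42.4% to 47.5% of the nonzero values of a library are not whole. Because counts cover the span and no exon length was used, levels were compared between libraries rather than between genes.

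Genes were filtered with filterByExpr of edgeR 4.0.16 (minimum count 10, minimum total 15), scaled by TMM and tested by the quasi-likelihood method of edgeR under R 4.3.3, on the counts as deposited and with no covariate. Adjusted p values are Benjamini-Hochberg values over all 15606 genes, with a threshold of 0.05. Log2 CPM used 2 as prior count, and CPM are per TMM-scaled library size. The precision of low genes is limited by totals of 27.9 to 44.6 M (units of 1000000). The labels do not say that animals came from separate litters or extractions, so p values measure the spread between these samples. Alternatives were rounded counts, RLE factors, library totals, other filters, DESeq2 1.42.0 and voom with quality weights (limma 3.58.1). Further alternatives were a replicate block, each library left out, KI 3 to 5 left out or alone, and no mitochondrial genes. The genes and lists were chosen with earlier results of these data known. Genes given in full are those past the threshold, the 3 transcription factors and, in the other 4 classes, the 2 of highest mean CPM and the 1 of largest fold. Of the other lists, up to 4 past the threshold were named, or, where fewer than 2 passed, the 2 of highest mean CPM. The fit was tested on simulated data. Figures were drawn with matplotlib 3.10.9.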

Additional observations from a re-analysis of the deposited data

Results flagged for a closer look

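Within groups of 6, the highest or lowest library was flagged where its gap to the nearest other, divided by the range of the group, was above Dixon's critical value of 0.625. Of 64 groups of values, 3 were flagged, and chance flags about 1 in 20. Isg15 in WT was flagged for WT 5, at 6.06 CPM where the next WT library was at 3.44 CPM. Isg15 in KI was flagged for KI 5, at 5.53 CPM beside 4.89 CPM. Ifi35 in KI was flagged for KI 6, at 12.5 CPM below the next lowest at 14.6 CPM.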

How the results depend on the processing

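Of all genes, 696 were higher and 677 lower in KI. Library totals alone gave 2959 and 190, no filter 433 and 414, the replicate block 220 and 212, and leaving out KI 3 to 5 gave 69 and 23. Lower genes numbered 1065 in DESeq2, 1267 in voom and 1192 with KI 3 to 5 as the only KI libraries. Without 1 library, 389 to 716 genes were higher and 340 to 827 lower. Of the interferon-stimulated genes, 10 were called higher, 22 with library totals, 17 in DESeq2, 20 in voom, 4 with the replicate block, 0 without KI 3 to 5 and 7 to 16 without 1 library. Their median log2 fold change was 0.58 with library totals and 0.39 to 0.50 without 1 library. The cause of these shifts was not tested. Samples with the same replicate number correlated at -0.28 to 0.03 in log2 CPM minus the group mean of each gene. On this measure 0 of 6 WT samples correlated best with the KI sample of their own number, so the numbers were not read as pairs. Under the block Usp18, Irf7, Dhx58 and Ifi27l2a were called. Folds near 0 changed sign. Parp9 was -0.02 without WT 2 and -0.01 without WT 3, against at most 0.16 without another library. Dtx3l was 0.08 with library totals, 0.09 without KI 3 to 5, and 0.02 without WT 5, against -0.12 at the lowest without another library. Samd9l was -0.06 with KI 3 to 5 as the only KI libraries and Gbp2 0.00 without KI 3 to 5. Oas3 gave no value under the CPM filter. Of 735 log2 fold changes of single genes under an alternative, 634 kept their direction and side of the threshold, 44 newly passed it, 50 no longer did and 7 reversed.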

Other observations

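Within WT, several interferon-gamma-inducible GTPase genes, which guard vacuoles against intracellular pathogens, were highest in WT 5. Gbp9 was highest in WT 4 instead (39.9 CPM, next 34.7 CPM), and Gbp4, Gbp7, Tgtp1 and Tgtp2 were highest in WT 1. Igtp was at 75.3 CPM in WT 5 and 41.2 CPM in the next WT library, while KI ran from 12 to 20.6 CPM. Iigp1 was at 157 CPM in WT 5 against 83.2 CPM in the next, with 30.9 to 80.2 CPM in KI, and Gbp6 at 78.7 against 49.6 CPM, with 24.2 to 38.6 CPM in KI. None of these genes passed the test (adjusted p = 0.185 for Igtp, 0.286 for Iigp1 and 0.418 for Gbp6). The chemokine gene Cxcl10 had 3.82 CPM in WT 5, 0.693 CPM in the next WT library and 0.621 to 1.03 CPM in KI. These genes were named after their values were seen.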
